A study of Mus musculus with 2 samples.

Results

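The genes described here are 9 mouse genes that are used as labels of macrophages exposed to interleukin-4 (IL-4) or that belong to the same lectin families: Mrc1, Mgl2, Clec10a, Cd209a, Cd209d, Cd209e, Retnla, Chil3 and Ear2. They were taken by symbol from the 27998 genes of each matrix, and all 9 were found. The set was put together with results of these data in view, so every value below is a description. MC38 is a mouse colon carcinoma line, and its tumours in C57BL/6J mice were the source of viable CD45+ (immune) cells obtained by sorting; the characteristics give the strain as C57BL/6. Tumour cells were injected into the skin at 4 sites per mouse and grew for 7 days. Injection into the tumours followed for 3 days, of either a control or, at 200 µg per mouse per day, anti-PD-1, an antibody to an inhibitory receptor of T cells, and cells were taken on day 10. There was 1 control library and 1 anti-PD-1 library of droplet 3' RNA sequencing. The nature of the control injection, the age of the mice and the number of mice per library are not given in the sources used here.

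Both libraries hold transcripts counted by unique molecular identifiers (UMIs), with 5203415 UMIs in the control matrix and 13717817 in the anti-PD-1 matrix. Barcodes with at least 1000 UMIs and at most 10% mitochondrial UMIs were kept as cells, which left 1174 control cells (median 3287 UMIs) and 3321 anti-PD-1 cells (median 2763), and 4 barcodes were kept in both. Cells were sorted into gates by UMIs of marker genes that include none of the 9. Macrophages had at least 5 UMIs of the complement genes C1qa, C1qb and C1qc, and were split by the chemokine gene Ccl8 into a Ccl8 gate (at least 2 UMIs; 17 control and 4 anti-PD-1 cells) and a C1q gate (153 and 180). Classical monocytes (Ly6c2; 100 and 245), nonclassical monocytes (Ace and Treml4; 11 and 28), type 2 dendritic cells (Flt3, Zbtb46, Kmo, Ffar2 or Clec4a4 with MHC class II; 26 and 18) and migratory dendritic cells (Ccr7 and others; 30 and 96) followed. Marker genes not used for gating were then checked: 8 of 8 macrophage markers were over 2-fold above all other cells in the C1q gate of either library, 4 of 5 markers were so in classical monocytes, 7 of 7 in migratory dendritic cells, and 5 of 7 (control) and 4 of 7 (anti-PD-1) in type 2 dendritic cells. In the Ccl8 gate 8 of 8 (control) and 7 of 8 (anti-PD-1) macrophage markers were so. In control nonclassical monocytes 6 of 6 of their own markers were so, as were 4 of 5 classical monocyte markers. Defining genes of eosinophils were near 0: Prg2 and Epx had no UMI in the macrophage, monocyte, type 2 or migratory dendritic gates of either library. Of cells with at least 5 C1q UMIs, 3 of 173 in control and 18 of 202 in the anti-PD-1 library also carried more than 1 UMI of T, NK or B cell genes and stayed outside the macrophage gates. With 1 library per group there is no replicate error, no test between conditions and no p-value; intervals are at 95%, exact, and cover counting error only.

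IL-4 and IL-13 act on macrophages through the receptor chain Il4ra, which activates the transcription factor STAT6. In mice, STAT6 raises transcription of several surface lectins, which bind and take up glycosylated proteins, and of secreted proteins such as RELM alpha (Retnla) and Ym1 (Chil3). Several of the 9 genes also mark other cells. Mgl2 and Cd209a are used to tell type 2 dendritic cells apart, and Chil3 is abundant in classical monocytes and neutrophils. Ear2, a ribonuclease of the eosinophil-associated family, is found in nonclassical monocytes. One symbol can therefore stand for a state of macrophages in one tissue and for another cell type in the next.

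Among the 8 of 9 genes with an entry in the RefSeq promoter table (GRCm38.p6), 2 held the palindrome TTCNNNNGAA, the form of STAT site that STAT6 prefers, in the 250 bases before the RefSeq start: Retnla, 145 bases before it, and Cd209e, 79 bases before it. Of all 27025 promoters of that length, 5.86% held it. Both windows are shown because they carry the only matches among the 8 genes; the match is in capitals, and the bases between the GENCODE start and the later RefSeq start were left off the downstream end. Retnla is at chr16:48842359-48842550 (plus strand) and Cd209e at chr8:3854310-3854536 (minus strand).
Retnla: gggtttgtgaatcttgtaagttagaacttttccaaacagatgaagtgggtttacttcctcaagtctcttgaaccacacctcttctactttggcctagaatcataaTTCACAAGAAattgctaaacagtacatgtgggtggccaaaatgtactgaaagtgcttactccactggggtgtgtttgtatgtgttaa
Cd209e: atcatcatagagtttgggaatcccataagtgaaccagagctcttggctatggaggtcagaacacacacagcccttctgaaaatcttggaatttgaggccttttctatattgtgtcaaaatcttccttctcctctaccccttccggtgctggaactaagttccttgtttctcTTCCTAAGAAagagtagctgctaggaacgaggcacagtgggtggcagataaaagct
The 1-base-shorter palindrome TTCNNNGAA was found in Chil3 alone among the 8 and in 7.18% of all promoters. GAGGAA, the core bound by the myeloid factor PU.1, was found on either strand in Mrc1, Mgl2, Cd209d and Retnla and in 23.1% of all promoters. TTCNNNNGAA and TTCNNNGAA read the same on both strands, and among the 8 genes no match of these 3 motifs overlapped another.

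The first question was which of the genes were macrophage genes and which were dendritic cell genes in these tumours. Mrc1 and Chil3 were at least 2-fold higher in the macrophage gates together (170 control and 184 anti-PD-1 cells) than in type 2 dendritic cells in both libraries, whereas Mgl2, Clec10a, Cd209a and Cd209d were at least 2-fold lower. Levels are CPM, the UMIs of a gene scaled to a common total of UMIs per gate, and a gene was compared when it had at least 20 UMIs in the gates of each library. Of all 4869 genes compared, 6.76% were that much higher and 2.9% that much lower in both libraries, against 2 and 4 of the 8 genes of the set that could be compared; their median log2 ratio was -1.39, beside 0.11 for all genes. Cd209e had too few UMIs in the anti-PD-1 library, but none lay in a macrophage. Retnla and Ear2 were on neither side.

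**Figure D1:**
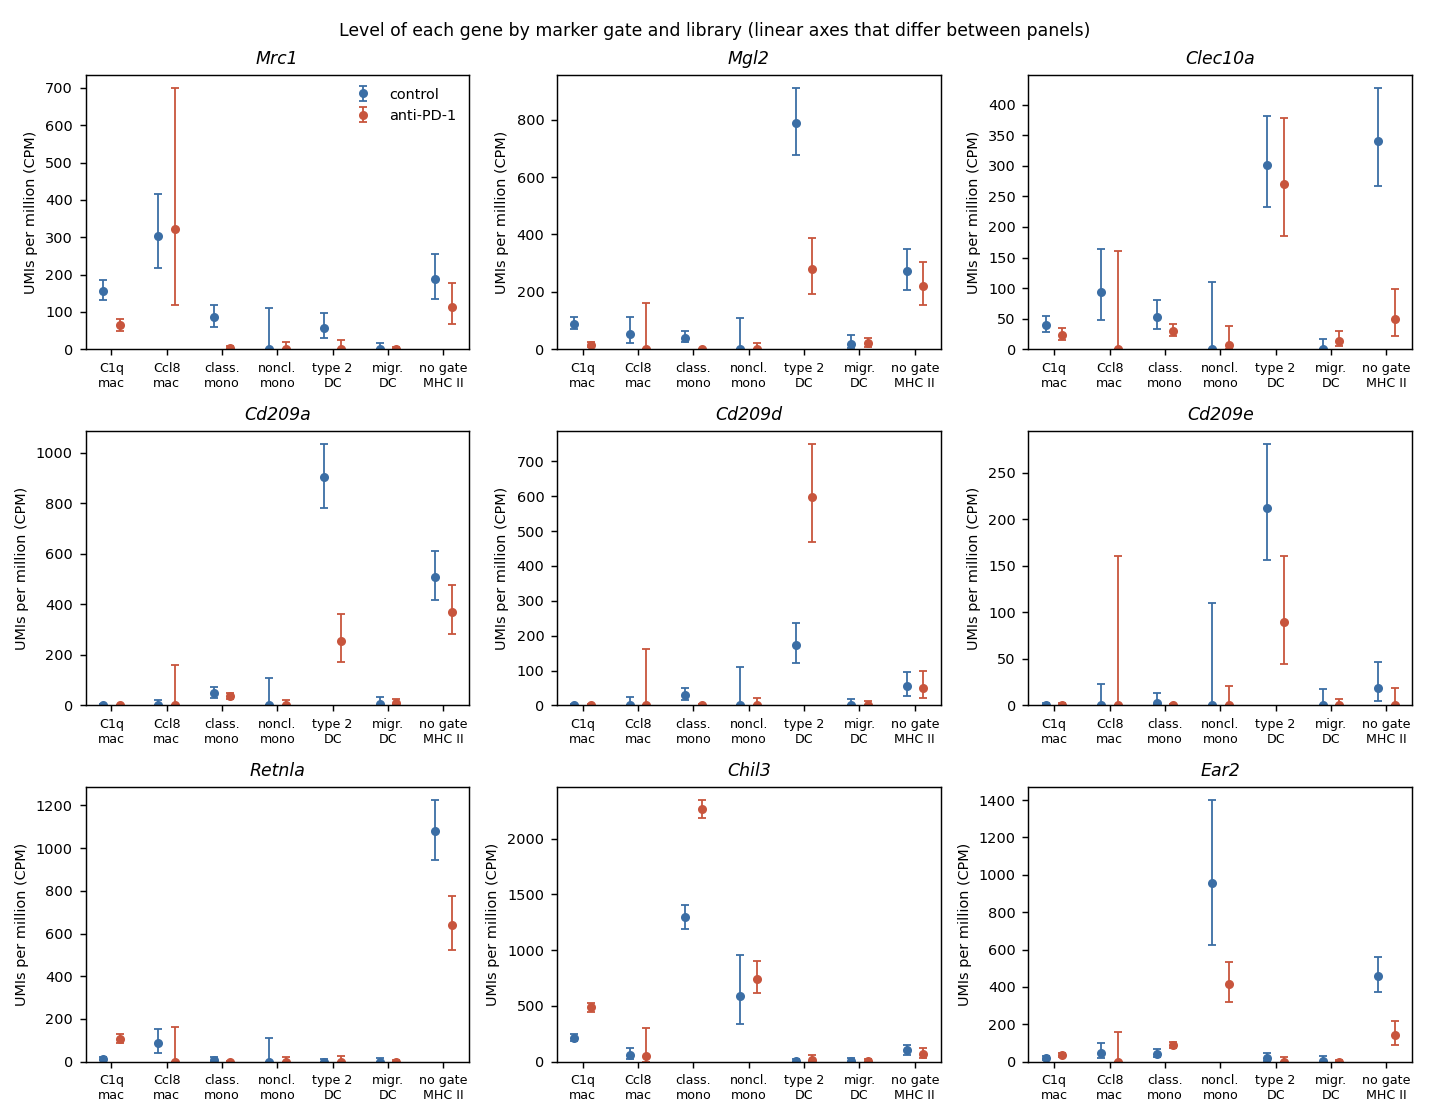
Level of each of the 9 genes in CPM (y, linear, scaled per gene) in 6 marker gates and in cells of no gate with at least 20 MHC class II UMIs (x), in the control (blue) and anti-PD-1 (red) library. Points are the level of all cells of a gate summed and bars are exact 95% Poisson intervals (for 0 UMIs, up to the level of 3 UMIs). Mgl2 is highest in type 2 dendritic cells in control, at 787 CPM, and Chil3 in classical monocytes, at 1295 and 2267; Cd209a is at 902 in control type 2 dendritic cells, while in anti-PD-1 it is at 253 there and 369 in the MHC class II-high cells of no gate.

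Mrc1 encodes the mannose receptor (CD206), an endocytic lectin for mannose-ended glycans. It lies on chromosome 2, 14229392 to 14332057, plus strand (ENSMUSG00000026712; GENCODE M21 on GRCm38, as for the other genes). Its level was 305 CPM (217 to 416) in control Ccl8 macrophages, 157 (132 to 184) in C1q macrophages, 86.3 (60.5 to 119) in classical monocytes and 57.5 (30.6 to 98.3) in type 2 dendritic cells. The intervals of the last 2 overlap, and those of the first 2 do not. In the anti-PD-1 library the C1q gate was at 64.2 CPM (50.1 to 81.0), the 4 Ccl8 cells held 6 UMIs, and no UMI was found in 18 type 2 dendritic cells, which allows up to 24.5 CPM. Migratory dendritic cells, nonclassical monocytes and neutrophils had no Mrc1 UMI in either library. In control this allows up to 110 CPM in the 11 nonclassical monocytes and 214 CPM in the 6 neutrophils, both above the level of classical monocytes. The ratio of macrophages to type 2 dendritic cells was 1.60 (0.79 to 2.54) on the log2 scale in control and at least 1.48 in anti-PD-1.

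The Mrc1 signal was spread over many cells: 124 control cells carried a UMI, and the richest held 9 of 284 UMIs. With every cell thinned to 1000 UMIs, 47.1% (23.0 to 72.2) of Ccl8 and 14.4% (9.24 to 21.0) of C1q macrophages of the control library had an Mrc1 UMI, and 70.6% and 43.1% without thinning. T cells, which should lack the gene and had a median of 2868 UMIs against 5662 in macrophages, gave 0.649% thinned and 0.974% unthinned. The macrophage share was above that of T cells.

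Mgl2 and Clec10a are neighbours on chromosome 11 (70130329 to 70137550 and 70156197 to 70170834, plus strand) and encode the galactose-type lectins CD301b and CD301a, which bind galactose and N-acetylgalactosamine. In the last 500 bases of the Clec10a transcript, where 3' reads fall, 20.4% of the 50-base windows also occur in the Mgl2 transcript. A part of the Clec10a reads may therefore not be told apart from Mgl2. Of the windows in the last 500 bases of Mgl2, 4.21% occur in 10 other genes such as H2-Q6, and Clec10a is not among them. Mgl2 was at 787 CPM (676 to 911) in control type 2 dendritic cells, with UMIs in 19 of 26 cells, and at 89.6 (71.5 to 111) in C1q macrophages, with UMIs in 31 of 153. In the anti-PD-1 library it was at 278 CPM (193 to 388) in type 2 dendritic cells, where 5 of 18 cells carried it, and at 16.3 (9.65 to 25.7) in C1q macrophages. The log2 ratio of macrophages to type 2 dendritic cells was -3.20 (-3.58 to -2.83) in the control library and -4.12 (-5.03 to -3.25) in anti-PD-1.

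The Clec10a level was 301 CPM (233 to 381) in control type 2 dendritic cells, 93.7 (48.4 to 164) in Ccl8 macrophages, 52.7 (33.1 to 79.9) in classical monocytes and 39.5 (27.8 to 54.4) in C1q macrophages, and the intervals of the last 3 overlap. The log2 ratio of macrophages to type 2 dendritic cells was -2.71 (-3.27 to -2.16) in the control library and -3.54 (-4.34 to -2.76) in anti-PD-1. In the anti-PD-1 type 2 dendritic gate, 4 of 18 cells held all 33 UMIs, and 16 lay in 1 cell.

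The Cd209 genes, mouse relatives of human DC-SIGN, lie in the same region of chromosome 8: Cd209a (3743397 to 3748984), Cd209e (3847965 to 3854309) and Cd209d (3871824 to 3878555), all on the minus strand. None of the 50-base windows at their 3' ends was shared with another gene. Cd209a reached 902 CPM (782 to 1034) in the control library and 253 (172 to 360) in anti-PD-1 type 2 dendritic cells, with UMIs in 15 of 26 and 5 of 18 cells. Macrophages had 2 UMIs in 170 control cells and none in 184 anti-PD-1 cells, the latter allowing up to 2.67 CPM. The level in type 2 dendritic cells was 480.5-fold that of macrophages in control and at least 95.0-fold higher in anti-PD-1. On the log2 scale, macrophages over type 2 dendritic cells, the control ratio was -8.91 (-11.96 to -7.04).

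In type 1 dendritic cells, Cd209a had 9 UMIs in 2 of 13 control cells (77.4 CPM) and 19 UMIs in 2 of 15 anti-PD-1 cells, 17 of them in 1 cell (224 CPM, 135 to 350.0).

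Outside the dendritic gates, Cd209a was also found in a few classical monocytes, at 48.0 CPM (29.3 to 74.1) in the control library and 36.4 (27.2 to 47.8) in anti-PD-1. In control, 17 of these 20 UMIs came from 1 cell that also held 12 Cd209d UMIs and had 1 MHC class II UMI. In anti-PD-1, 10 of 245 monocytes held the 52 UMIs. Macrophages stood below classical monocytes for Cd209a in both libraries (classical monocytes over macrophages: 4.68 in control, at least 3.77 in anti-PD-1, log2), as they did for Chil3. Higher by 2-fold in classical monocytes in both libraries were 1.72% of all 5570 genes compared and 2 of 6 of the set, and lower were 2.64% and 2 of 6, Mrc1 and Retnla.

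Cd209d (SIGNR3) and Cd209e (SIGNR4) rested on a handful of cells. Cd209d had 39 UMIs in 5 of 26 control and 73 UMIs in 2 of 18 anti-PD-1 type 2 dendritic cells, 47 of them in 1 cell, against 0 and 1 UMI in all macrophages. Cd209e had 48 UMIs in 4 control and 11 UMIs in 2 anti-PD-1 type 2 dendritic cells and none in macrophages of either library. These cells overlapped. Of the 6 control cells with Cd209d at 1000 UMIs per cell, 5 also had Cd209a and 4 had Cd209e. The product of the shares, pooled over all myeloid cells, gives 0.312 and 0.072 cells. Both anti-PD-1 cells with a thinned Cd209d UMI also held Cd209a, Cd209e and Clec10a.

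**Figure D2:**
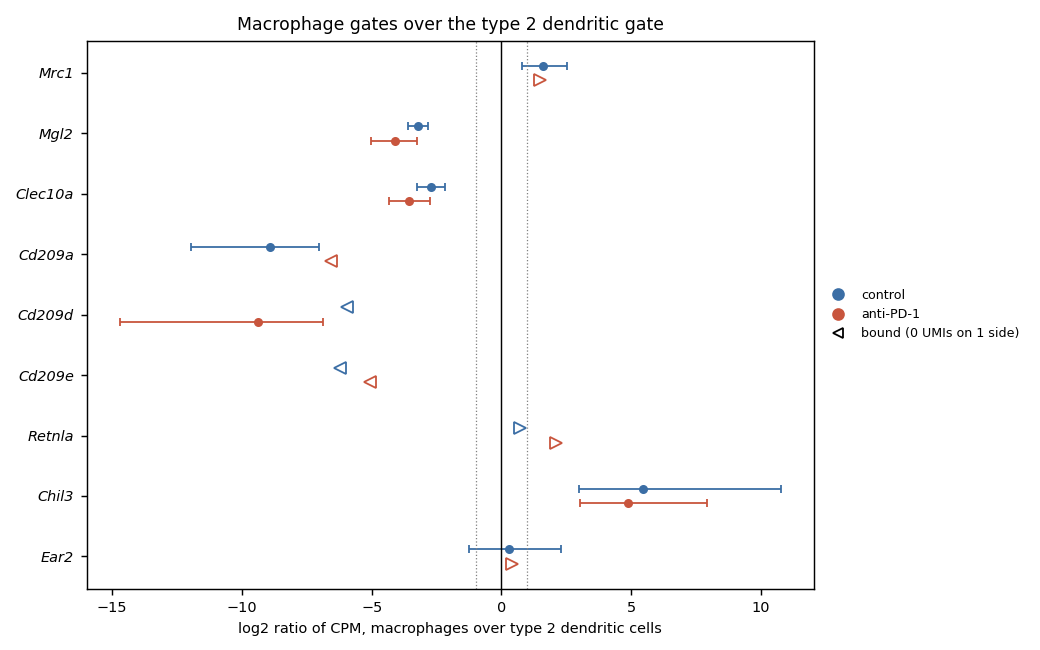
Log2 ratio of CPM in the macrophage gates over the type 2 dendritic gate (x) for each gene (y), with 95% conditional binomial intervals, in control (blue) and anti-PD-1 (red). Open triangles are bounds against a gate with 0 UMIs and dotted lines mark 2-fold. Mgl2 (-3.20 in control), Clec10a (-2.71) and the Cd209 genes lie to the left, and Mrc1 (1.60) and Chil3 (5.46) to the right.

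The type 2 dendritic gate was narrow, and many cells with MHC class II but few gate genes fell in no gate. Among myeloid cells of no gate, 53 control and 41 anti-PD-1 cells had at least 20 MHC class II UMIs, a split made after the values were seen. Of the dendritic check markers, 5 of 7 in control and 4 of 7 in anti-PD-1 were over 2-fold above all other cells in this group, while its summed macrophage markers were at 3625 and 4006 CPM, against 411 and 392 in the type 2 dendritic gate. It held Cd209a at 507 CPM (416 to 611) and 369 (281 to 476), Mgl2 at 272 and 219, and Clec10a at 341 and 50.1. Mrc1 was at 189 CPM (136 to 256) and 113 (66.8 to 178) there, above its level in gated dendritic cells. The macrophage gates together were no higher, at 175 CPM (150.4 to 202) and 68.5 (54.0 to 85.6), and the intervals overlapped in both libraries. Retnla UMIs were found in 6 of the 53 control and 4 of the 41 anti-PD-1 cells. Those 6 held 2, 5, 3, 3, 2 and 7 of the group's 41 Mrc1 UMIs, and those 4 held 3, 4, 4 and 0 of 18. With the MHC class II-high cells of no gate added to the dendritic gate, the log2 ratio of macrophages to dendritic cells for Mrc1 was 0.52 in control and 0.10 in anti-PD-1. Mrc1 was then no longer 2-fold, whereas Mgl2 was at -2.65 in control. The Mrc1 ratio with only the cells lacking Retnla added was not tested.

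Retnla encodes RELM alpha, a small secreted protein that is a standard readout of IL-4 in mouse macrophages (chromosome 16, 48842551 to 48844461, plus strand). In these tumours it was confined to very few cells. Of 378 control UMIs in 20 cells, 115 were in 1 cell and 87.3% in 5 cells. Of 227 anti-PD-1 UMIs in 12 cells, 73 were in 1 cell and 95.2% in 5. Cells with at least 5 Retnla UMIs numbered 9 in control and 6 in the other library, and they held 95.5% and 97.4% of the UMIs; 2 control cells had 4 UMIs and no anti-PD-1 cell did. All type 2, type 1 and migratory dendritic cells had none. C1q macrophages with a Retnla UMI were 5 of 153 and 2 of 180 (control first). The 2 anti-PD-1 macrophages held 119 UMIs, 52.4% of that library's total, and the 5 control ones 12 UMIs, 3.17%. The MHC class II-high cells of no gate held 61.9% of control and 44.9% of anti-PD-1 UMIs.

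**Figure D3:**
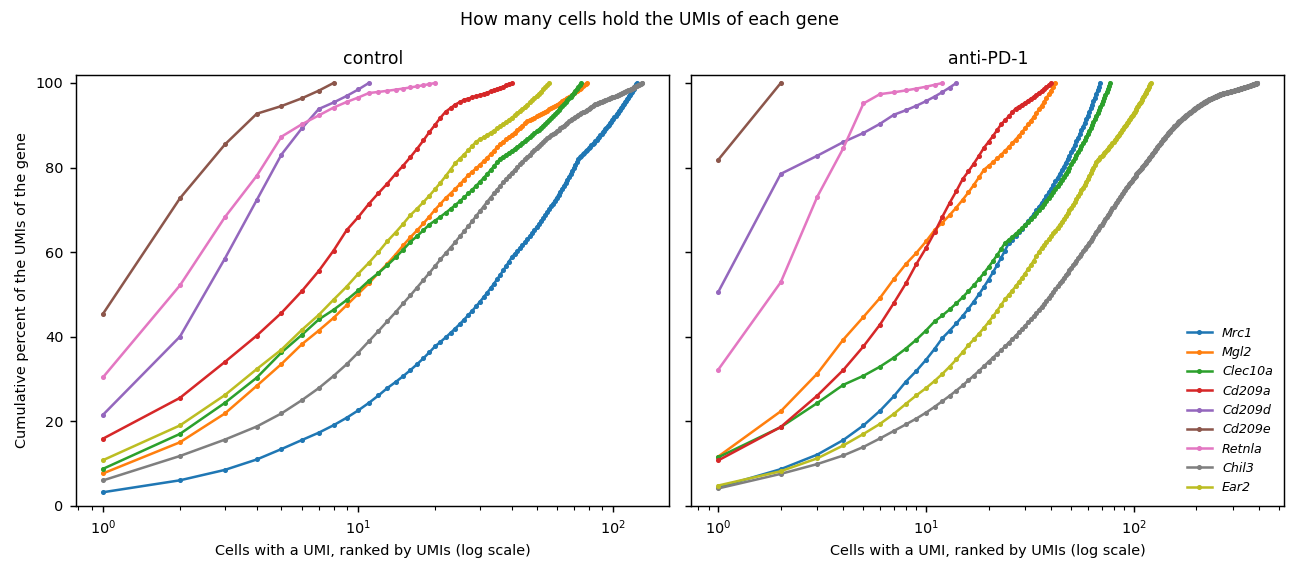
Cumulative percent of the UMIs of each gene (y) over cells with a UMI ranked from the richest (x, log scale), in control (left) and anti-PD-1 (right). In control, 5 cells hold 87.3% of Retnla UMIs and 13.4% of Mrc1 UMIs.

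The cells with at least 5 Retnla UMIs were picked by that count, so their other genes are given as a description. All 15 carried Ear2, which was at 1766 CPM in the 9 control and 1186 CPM in the 6 anti-PD-1 cells, against 21.6 and 32.9 CPM in the macrophage gates. Mrc1 was present in 7 of 9 and 5 of 6, at 573 and 695 CPM, and the lysozyme gene Lyz1 in 5 of 9 and 4 of 6, at 1718 and 2699 CPM against 3.75 and 55.1 in macrophages. Lyz1 and Fn1, which encodes fibronectin and was found in 8 of 9 and 5 of 6, were chosen after their values were seen. All 15 had MHC class II UMIs, from 16 to 255 per cell. C1q genes were few, with at least 5 UMIs in 2 of 9 and 2 of 6, and Apoe was at 1122 and 40.9 CPM against 11242 and 4375 in macrophages. Mgl2 was found in 3 of 9 and 4 of 6 (334 and 286 CPM, against 85.4 and 16.0 in macrophages) and Cd209a in 3 of 9 and 2 of 6 (191 and 123 CPM, against 1.88 and no UMI). None had a UMI of Chil3, Cd209d, Cd209e, the dendritic genes Flt3, Zbtb46 and Kmo, or the eosinophil genes Siglecf, Prg2 and Epx. Over all myeloid cells at 1000 UMIs per cell, Retnla and Ear2 were found together in 6 of 13 control and 4 of 6 anti-PD-1 Retnla cells, where the product of the shares gives 0.806 and 0.277.

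**Figure D4:**
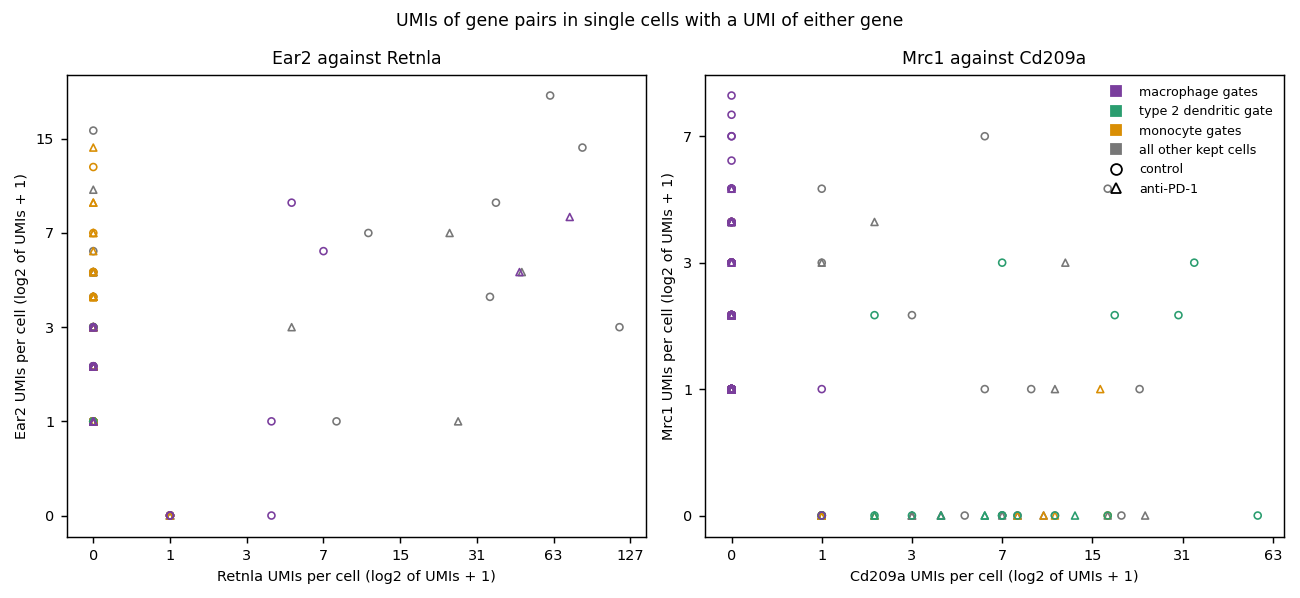
UMIs per cell of Ear2 against Retnla (left) and Mrc1 against Cd209a (right), axes as log2 of UMIs + 1 and labelled in UMIs, for kept cells with a UMI of either gene; colour gives the gate and shape the library, and points can lie on top of each other. Of 193 cells with Ear2 or Retnla, 16 hold both, and of 254 cells with Mrc1 or Cd209a, 19 hold both. Every cell with at least 5 Retnla UMIs lies above 0 for Ear2.

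Chil3 encodes Ym1, a secreted chitinase-like protein (chromosome 3, 106147554 to 106167564, minus strand). Its level was 1295 CPM (1188 to 1409) in the control library and 2267 (2190 to 2346) in anti-PD-1 classical monocytes, with UMIs in 56 of 100 and 172 of 245 cells. Nonclassical monocytes were at 588 (336 to 955) and 745 (612 to 899), and C1q macrophages at 213 (185 to 245) and 487 (447 to 530). The 197 anti-PD-1 neutrophils were at 1141 CPM (1057 to 1231); control had 6 cells in that gate, of which 2 held 22 UMIs. Type 2 dendritic cells had 1 and 2 UMIs. Free RNA was at 248 and 591 CPM for Chil3 in barcodes of 10 to 50 UMIs, and T cells, with medians of 2868 and 2701 UMIs, had a thinned UMI in 0.649% and 1.17% of cells, against 10.0% and 12.5% of macrophages and 32.0% and 54.3% of classical monocytes. The 3' end of Chil3 shares 17.1% of its 50-base windows with Chil4, which had no UMI in the macrophages of either library.

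At 1000 UMIs per cell, no myeloid cell of either library held Chil3 with Mgl2, Cd209a, Cd209d, Cd209e or Retnla, whereas 4 control and 2 anti-PD-1 cells held it with Clec10a (products 4.14 and 3.67) and 3 and 0 with Mrc1 (6.62 and 2.81). The products of the shares were 3.86 and 3.67 cells for Mgl2 and 3.59 and 4.32 for Cd209a, while for the rarer genes they were under 2 in both libraries. Without thinning, Chil3 with Mgl2 was found in 7 of 170 control macrophages, where the product was 7.2, and in no anti-PD-1 macrophage. These products pool all myeloid cells, of which different gates held Chil3 and the lectins. Within anti-PD-1 classical monocytes, without thinning, Clec10a was found with Chil3 in 21 of 245 cells, where the product was 21.1, and in 8 of 100 control ones, with a product of 10.1. Among the lectins over all myeloid cells at 1000 UMIs, Mgl2 was found with Cd209a in 9 control and 5 anti-PD-1 cells (products 1.46 and 0.327), Clec10a with Cd209a in 10 and 6 (1.56 and 0.327), and Mgl2 with Clec10a in 8 and 5 (1.68 and 0.278). These products too pool gates that held the lectins unevenly, which alone can put the counts above them. In control type 2 dendritic cells, 11 of 26 had a thinned Mgl2 UMI and 10 of 26 a Cd209a UMI.

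Ear2 (chromosome 14, 44102654 to 44103534, plus strand) was at 956 CPM (624 to 1400.1) in the control library and 417 (319 to 535) in anti-PD-1 nonclassical monocytes, with UMIs in 5 of 11 and 21 of 28 cells. The MHC class II-high cells of no gate came next in both libraries, at 461 CPM (375 to 560.2) and 144 (91.3 to 216), and the intervals did not overlap those of nonclassical monocytes. In this group the 6 control cells with Retnla held 1, 9, 7, 14, 21 and 4 of the 100 Ear2 UMIs. The 4 anti-PD-1 cells with Retnla held 1, 3, 7 and 5 of 23. Classical monocytes were at 43.2 (25.6 to 68.2) and 86.8 (72.2 to 104), and macrophages at 21.6 (13.7 to 32.4) and 32.9 (23.2 to 45.4). In the last 500 bases, 38.1% of Ear2 windows also occur in other genes of the family such as Ear1 and Ear10, so its counts are uncertain to that extent. Ear1 had 2 UMIs in the macrophages of each library and Ear10 none.

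The second question was how the genes differed between both libraries within a gate. In the macrophage gates together, Mrc1 was at 175 CPM (150.4 to 202) in the control library and 68.5 (54.0 to 85.6) in anti-PD-1, and the log2 ratio was -1.35 (-1.75 to -0.96). Mgl2 was at 85.4 CPM (68.8 to 105), from 91 UMIs, and at 16 CPM (9.49 to 25.3), from 18 UMIs, a log2 ratio of -2.42 (-3.23 to -1.68). Before thinning, 34 of 170 macrophages in control had an Mgl2 UMI and 11 of 184 in the other library. After thinning of every cell to 1000 UMIs the shares were close, 4.12% (1.67 to 8.30) and 4.35% (1.90 to 8.39). Clec10a was at 46.0 and 23.1 CPM (log2 -0.99, -1.74 to -0.28), just short of 2-fold. Chil3 was at 195 and 480.2 CPM, higher by 2.46-fold (log2 interval 1.07 to 1.54). Retnla had 23 UMIs in 7 control and 119 in 2 anti-PD-1 macrophages (log2 2.29, 1.64 to 3.01), and Ear2 differed by 0.61 (-0.18 to 1.43). Of the 6 genes compared, 2 were at least 2-fold higher and 2 lower, where 3.7% and 3.36% of all 6792 genes were.

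Several of these values moved with other features of the gates. The summed level of 8 other macrophage markers in the same cells was 14385 CPM in control and 6316 in anti-PD-1, with all 8 detected in both. Apoe alone made up 11242 and 4375 CPM of these sums. Each of the others was lower too, but by less, with Trem2 at 450 and 230 and Fcgr1 at 589 and 467. The sum of 5 classical monocyte markers was 2256 and 3221, and that of 6 neutrophil markers 92.0 and 294. Their part in the differences was not tested. In the C1q gate alone, where 4.44% of all genes were 2-fold higher and 3.47% lower, Mrc1 was at -1.29 (-1.72 to -0.87), and the same 4 genes of the set passed 2-fold. In the Ccl8 gate, with 4 anti-PD-1 cells, Mrc1 was at 0.08 (-1.45 to 1.33); with both gates weighted alike it was -0.26. Without the 5% of cells deepest in UMIs, Chil3 was at 0.11 and Mgl2 at -1.47. Retnla rested on 2 cells and was at 1.45 without the richest of each library.

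In classical monocytes the Mrc1 level was 86.3 CPM (60.5 to 119) in control, where 18 of 100 cells had a UMI, and 4.20 (1.54 to 9.15) in anti-PD-1, where 5 of 245 did; the log2 ratio was -4.36 (-5.90 to -3.10). Mgl2 had 17 UMIs in 6 control cells, 10 of them in 1 cell, and none in anti-PD-1, at least 19.4-fold lower. The control gate also held more RNA of other macrophage genes: the 8 markers summed to 7255 CPM there and 1437 in anti-PD-1, with Mertk at 0 in both, and the part of this in the Mrc1 value was not tested. The 6 neutrophil markers summed to 144 and 4764 CPM. Chil3 was higher by 0.81 (0.68 to 0.94) and Ear2 by 1.01 (0.29 to 1.81), with Ear2 UMIs in 9 of 100 and 56 of 245 cells. At 2-fold, 1 of 5 genes was higher (Ear2) and 1 lower (Mrc1), where 8.46% and 5.09% of 6113 genes were. The Ear2 value lay within 0.90 and 1.51 over the alternatives, so its side of 2-fold was not stable.

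In type 2 dendritic cells Mgl2 was lower in anti-PD-1, with a log2 ratio of -1.50 (-2.08 to -0.97), as was Cd209a at -1.83 (-2.43 to -1.28). Clec10a was at -0.16 (-0.80 to 0.46), but moved between -1.14, with the MHC class II-high cells of no gate added, and 0.66, after thinning. With those cells added, Mgl2 was at -1.13 and Cd209a at -1.15. Cd209e was at -1.24 (-2.33 to -0.27) and Cd209d at 1.79 (1.21 to 2.39), each from 2 anti-PD-1 cells; without the richest cell of each library, Cd209d was at 0.97, and with at least 3 gate UMIs required, Cd209e was at 0.12. At 2-fold, 3 of 5 genes were lower and 1 higher, where 6.27% and 4.74% of 2154 genes were. In the same 26 and 18 cells, 7 other dendritic markers summed to 1149 and 858 CPM and 5 classical monocyte markers to 3589.5 and 6825, and their part was not tested. Nonclassical monocytes, with 11 and 28 cells, had Ear2 lower, at -1.20 (-1.88 to -0.48), 1 of 2 genes compared, where 9.52% of 1198 genes were lower and 12.9% higher; Chil3 differed by 0.34 (-0.42 to 1.20). No gene of the set could be compared in migratory dendritic cells, where Mgl2 was at 17.5 and 20.8 CPM and 12% of all 3104 genes were 2-fold higher and 2.84% lower. In the Ccl8 gate Mrc1 alone could be compared and was on neither side, where 6.09% of 1101 genes were higher and 13.5% lower.

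**Figure D5:**
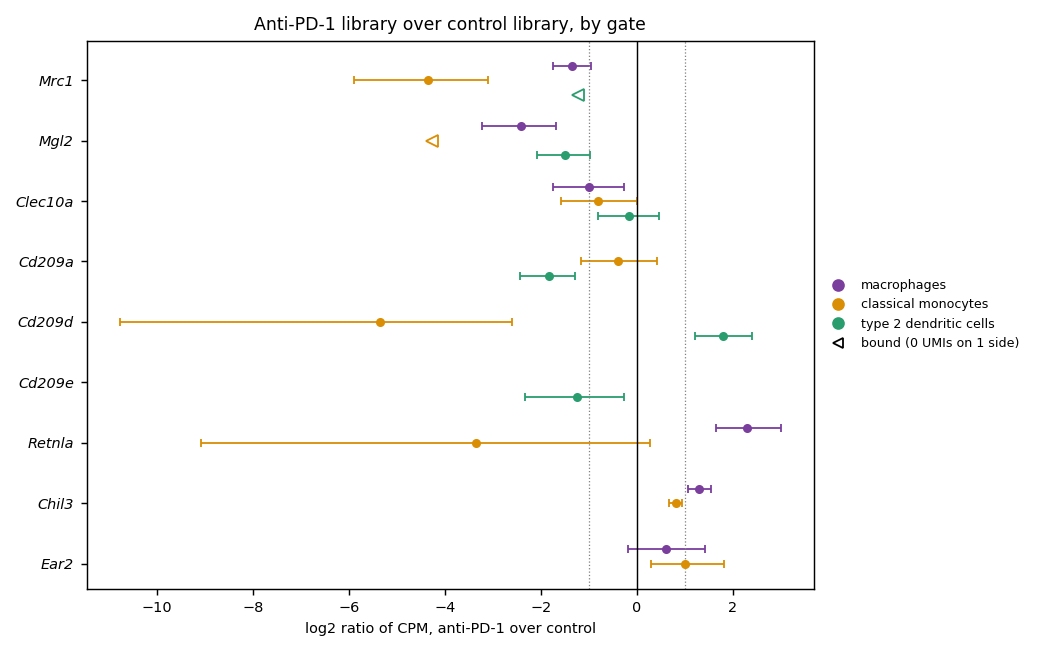
Log2 ratio of CPM, anti-PD-1 over control (x), for each gene (y) in macrophages (purple), classical monocytes (orange) and type 2 dendritic cells (green), with 95% conditional binomial intervals; open triangles are bounds and dotted lines mark 2-fold. Genes with no usable ratio in a gate have no point. Mrc1 and Mgl2 lie left of 0 in all 3 gates, and Chil3 lies right of 0 in macrophages and classical monocytes.

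Other genes of the IL-4 pathway were read from lists chosen with earlier results known. The ligands Il4 and Il13 had no UMI in the macrophage, classical monocyte or type 2 dendritic gates; T cells held 3 and 5 UMIs of Il4 and 2 and 2 of Il13 (control first). Of 10 receptor and signalling genes, 9 could be compared in macrophages and none differed by 2-fold between libraries (median log2 0.22, beside 0.04 for all genes). Il4ra, the receptor chain, was at 104 and 64.0 CPM (log2 -0.70, -1.15 to -0.26), Il2rg, the common gamma chain, at 60.1 and 80.0, the kinase gene Jak1 at 81.6 and 75.6, and Socs1, a feedback inhibitor, at 56.3 and 101.4 (log2 0.85, 0.39 to 1.32). Of 6 transcription factor genes, 3 could be compared and 1 was lower, Egr2, at 96.7 and 27.6 CPM (log2 -1.81, -2.44 to -1.22); Klf4 was at 145 and 88.0.

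A further 16 genes were listed as IL-4 targets, Folr2, Lyve1, Timd4 and Cd163 among them, and their response to IL-4 was not tested. Of the 16, 9 could be compared in macrophages between libraries. None was 2-fold higher and 3 were lower, where 3.7% and 3.36% of all genes were, with a median of -0.56 beside 0.04 for all genes. Arg1, which encodes arginase 1, was at 2880.0 and 1302 CPM (log2 -1.15, -1.24 to -1.06), the chemokine gene Ccl24 at 140 and 39.1 (-1.84, -2.36 to -1.34), and Cdh1, which encodes E-cadherin, had 17 and 8 UMIs (-1.17, -2.59 to 0.12). Tgm2, which encodes a transglutaminase, was at 389 and 307, and Msr1, a scavenger receptor gene, at 220 and 278. Between cell types, 8 of the 16 could be compared: Arg1, Tgm2, Ch25h and Msr1 were 2-fold higher in macrophages than in type 2 dendritic cells in both libraries, and Ccl17, a chemokine gene, was lower, with no UMI in macrophages and 283 and 826 CPM in type 2 dendritic cells.

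Other C-type lectins were read in the same gates. Of 24 measured, 11 could be compared and 8 were at least 2-fold higher in macrophages than in type 2 dendritic cells in both libraries, none lower, where 6.76% and 2.9% of all genes were, with a median log2 ratio of 2.01 beside 0.11 for all genes. Clec4a1 was at 268 against 57.5 CPM in control, Clec4a2 at 412 against 53.0 and Clec4a3 at 332 against 150.3. Between libraries, Clec4n (Dectin-2) was higher in anti-PD-1 macrophages, at 114 and 284 CPM (log2 1.31), and Clec4b1 lower, at 37.5 and 16.9 (-1.15, -2.02 to -0.33), with a median of 0.09 over the 11. Of 11 measured relatives of Retnla, Chil3 and Ear2, 1 could be compared in macrophages: Retnlg, a neutrophil gene, with 6 and 30 UMIs.

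Genes whose levels followed each member were ranked by Pearson's r of log2(CPM + 10) over 13 sums of a gate in a library with at least 20 cells, among 7628 genes. The points share libraries and include only 1 sum of type 2 dendritic cells, so r is a description. Mrc1 was most like Rab3il1 (r = 0.97), Nxpe5 (0.97) and Spon1 (0.95). Chil3 was most like Mgst1 (0.98), Ggh (0.97) and C3 (0.97), and Ear2 like Nxpe4 (0.95), Adgre4 (0.95) and Serpinb10 (0.93). Cd209a and Cd209d were both most like Bcl11a (0.88 for each), followed by Dnajc7 and Foxred1 for Cd209a and by Trim44 and Elmsan1 for Cd209d. Clec10a was most like Wdfy4 (0.94), Fgfr1op (0.93) and Ckb (0.91), Mgl2 like Fgfr1op (0.91) and Ciita (0.91), and Retnla like Mmp13 (0.94), Ch25h (0.90) and Ccl12 (0.87). For Retnla the points leave out the cells of no gate, which held 92.3% of its UMIs in control and 45.4% in anti-PD-1. Its highest point, anti-PD-1 C1q macrophages at 108 CPM, came from 2 cells, and control C1q macrophages were at 12.8. Its r values therefore rest mostly on that 1 point. For Ear2 the points hold 1 sum of nonclassical monocytes, that of anti-PD-1 at 417 CPM, and the next highest point was at 86.8. They leave out control nonclassical monocytes, at 956 CPM, and the cells of no gate, with 59.5% of control and 16.9% of anti-PD-1 Ear2 UMIs.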

How the data were processed

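Single CD45+ cells of 1 control and 1 anti-PD-1 library were measured by droplet 3' sequencing. The deposited matrices hold UMI counts per gene and barcode (737280 barcodes), made by the authors with Cell Ranger 2.1 on mm10, per the submitters' processing notes; no normalization had been applied. From these counts, barcodes were filtered (at least 1000 UMIs, at most 10% mitochondrial), gated by marker UMIs and summed per gate and library. No doublet caller was run: myeloid gates allow at most 1 T, NK or B cell UMI, and an alternative leaves out the deepest 5% of barcodes. Levels are CPM with exact Poisson intervals, shares of cells have exact Clopper-Pearson intervals, and ratios have conditional binomial intervals. The level allowed by 0 UMIs is that of 3 UMIs over the gate. PCR duplicates are collapsed by UMI. A gene was compared with at least 20 UMIs over both sums and called at 2-fold; no test was possible with 1 library per group. Counting was tested on simulated data. Free RNA was read from barcodes of 10 to 50 UMIs.

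All 9 genes are named, without listing every gate that held few of their UMIs; from each pathway list the named genes are those called or among the highest in macrophages. Likeness used genes with at least 100 UMIs that no gate uses. One gene named by the likeness rule is not reported here. Genes and lists were chosen with earlier results of these data known. Alternatives covered 19 settings, and 2 were added after seeing the data: adding MHC class II-high cells of no gate to the dendritic gate, and leaving out the richest cell. Python 3.11.15, numpy 2.4.6, scipy 1.17.1, pandas 2.3.3 and matplotlib 3.10.9 were used.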

Additional observations from a re-analysis of the deposited data

Results flagged for a closer look

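Cd209d differed in direction between gates under the same contrast. Its log2 ratio of anti-PD-1 over control was 1.79 (1.21 to 2.39) in type 2 dendritic cells and -5.36 (-10.78 to -2.60) in classical monocytes. The former rests on 73 UMIs in 2 anti-PD-1 cells and the latter on 12 UMIs in 1 control cell against 1 UMI in anti-PD-1. The difference between the gates was not tested.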

How the results depend on the processing

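With 1 library per group there is no replicate error and no replicate could be left out. No paired analysis was possible because each group has 1 library. Over 40 ratios of single genes, 593 values were recomputed; 53 moved, and 19 changed sign, 2 of them from a value past 2-fold. The 2 genes higher in macrophages than in type 2 dendritic cells were 1 with at least 3 dendritic gate UMIs, 0 after thinning to 1000 UMIs, 1 at a 4-fold call and 1 with MHC class II-high cells of no gate added to the dendritic gate. The 2 genes lower in anti-PD-1 macrophages were 1 after thinning and 1 at 4-fold. Thinning leaves fewer UMIs, so fewer genes reach 20. Of 36 pairs of genes, 15 were found together in at least 5 cells after thinning and 26 without it. Cd209e in type 2 dendritic cells (anti-PD-1 over control) was 0.12 with at least 3 gate UMIs, and Retnla in macrophages over type 2 dendritic cells was -1.77 in anti-PD-1 with MHC class II-high cells added. Leaving out the richest cell put Cd209a in classical monocytes at 1.79, from -0.40. For the other moved values the cause was not tested. Small gates limit the precision: Ccl8 macrophages (17 and 4 cells), nonclassical monocytes (11 and 28) and type 2 dendritic cells (26 and 18).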

Other observations

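Of the 215 Cd209a UMIs in the anti-PD-1 library, 32 lay in 6 cells of the T cell gate, 23 of them in 1 cell, and 11 in 2 cells of the NK cell gate. In the control library no T cell and 1 NK cell held a Cd209a UMI. In barcodes of 10 to 50 UMIs, Cd209a was at 31.1 CPM in control, from 1 UMI, and at 12.2 CPM in anti-PD-1, from 4 UMIs.

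The cell with the most Retnla was a control cell of 1260 UMIs, of which 115 were Retnla, 9.13% of its UMIs. It had 16 MHC class II UMIs, 2 C1q UMIs and 3 Ear2 UMIs and no Mrc1. Among the other 14 cells with at least 5 Retnla UMIs, the highest share was 1.71%.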
